A study of Mus musculus with 20 samples.

Results

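Chromatin recovered with a SOCS1 antibody was compared between knockout (KO) and wild-type (WT) mouse macrophages given lipopolysaccharide (LPS) for 30 min. Every SOCS1 peak called at that time was taken, from 1 library per genotype, and peaks of the 2 lists that overlapped by at least 1 bp were joined into 1 site. The 19931 KO and 19631 WT peaks gave 32308 sites, of 96700 merged regions in all 12 peak lists of the series. Of these sites, 7233 held a peak of both genotypes and are called shared, 12698 held a KO peak alone and 12377 a WT peak alone.

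The study mapped p65 and SOCS1 by CUT&RUN, which cuts and releases the DNA around an antibody-bound protein in permeabilised cells. The cells were bone marrow-derived macrophages, grown from marrow with the growth factor M-CSF, briefly fixed with formaldehyde, and either left untreated (control) or exposed to LPS at 100 ng/mL; this comparison uses the 30 min time, and the 8 h time serves as context. The WT mice are labelled C65BL6; the knocked-out gene is given as NOS1, the neuronal nitric oxide synthase, in the design text, whereas the title of the series concerns SOCS1. The labels give neither the number of animals pooled nor how the allele was made. Peak lists carry no expression values, so the genotype could not be checked against the targeted gene, and no direction below is read as an effect of losing a named protein. If SOCS1 is the deleted gene, SOCS1 peaks of KO cells may not mark SOCS1 protein, which was not tested. Below, a SOCS1 peak or site is named by its antibody. The KO library held 9106199.5 tags and the WT library 9744152, within the 6929718 to 18433869 of the 12 lists. With 1 library per genotype there is no replicate and no test. Every interval is an exact 95% interval for counting error only. Intervals of ratios count each tag as independent, and since tags can be copies of one molecule, they can be too narrow even for that.

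SOCS1 is a cytokine-induced inhibitor that binds Janus kinases and brings a ubiquitin ligase to its partners, and so ends signalling from interferon and other cytokine receptors. In macrophages it also limits responses to LPS, and it has been described in the nucleus, where the p65 subunit of NF-κB is one of its reported targets. LPS is sensed by TLR4, and within minutes NF-κB enters the nucleus and immediate-early genes are transcribed. SOCS1 has no known DNA-binding domain, and a peak marks DNA cut near the antibody.

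The 7 promoters below are shown because they carry sites of each kind: a high KO/WT ratio (Fas, Aldh18a1), a low one (Pigo, Wdr46), the promoter of Socs1 itself, and peaks in KO cells alone (Cep57) or WT cells alone (Zfp36). Each run is the 250 bases upstream of a RefSeq start in mm10 (GRCm38.p6), read 5′ to 3′ on the gene's strand. Capitals mark exact matches, on either strand, to GAS TTCNNNGAA (the STAT element), ISRE (the interferon element: GAAA, any 2 bases, GAAA), AP-1 TGANTCA, CRE TGACGTCA, ETS CCGGAAGT or the E-box CACGTG.
Fas, chr19:34290409-34290658, + strand: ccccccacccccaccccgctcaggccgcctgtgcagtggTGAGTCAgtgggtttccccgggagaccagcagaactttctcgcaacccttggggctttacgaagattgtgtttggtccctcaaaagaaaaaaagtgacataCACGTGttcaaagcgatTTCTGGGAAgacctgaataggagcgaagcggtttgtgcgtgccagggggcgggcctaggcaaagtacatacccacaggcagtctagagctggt
Aldh18a1, chr19:40588464-40588713, - strand: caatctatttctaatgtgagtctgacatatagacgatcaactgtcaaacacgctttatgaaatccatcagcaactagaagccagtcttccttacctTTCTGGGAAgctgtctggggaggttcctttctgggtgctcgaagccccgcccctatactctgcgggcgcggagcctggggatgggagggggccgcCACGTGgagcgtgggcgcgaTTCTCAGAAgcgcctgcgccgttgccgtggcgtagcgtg
Pigo, chr4:43025775-43026024, - strand: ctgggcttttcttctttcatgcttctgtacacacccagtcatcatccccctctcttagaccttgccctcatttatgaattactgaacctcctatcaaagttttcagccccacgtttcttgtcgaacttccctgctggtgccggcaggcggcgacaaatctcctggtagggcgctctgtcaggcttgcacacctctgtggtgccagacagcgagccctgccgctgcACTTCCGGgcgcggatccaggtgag
Wdr46, chr17:33940473-33940722, + strand: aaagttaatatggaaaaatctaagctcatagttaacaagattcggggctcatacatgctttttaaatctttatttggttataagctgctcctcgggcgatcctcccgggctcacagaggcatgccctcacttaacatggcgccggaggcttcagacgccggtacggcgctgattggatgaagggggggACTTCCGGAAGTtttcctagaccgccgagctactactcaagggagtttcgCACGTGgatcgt
Socs1, chr16:10785537-10785786, - strand: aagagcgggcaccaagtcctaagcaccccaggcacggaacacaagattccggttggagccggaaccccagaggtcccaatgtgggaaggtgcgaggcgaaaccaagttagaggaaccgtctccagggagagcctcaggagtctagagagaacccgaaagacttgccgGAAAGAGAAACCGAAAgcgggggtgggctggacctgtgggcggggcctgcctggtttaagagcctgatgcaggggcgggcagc
Cep57, chr9:13827054-13827303, - strand: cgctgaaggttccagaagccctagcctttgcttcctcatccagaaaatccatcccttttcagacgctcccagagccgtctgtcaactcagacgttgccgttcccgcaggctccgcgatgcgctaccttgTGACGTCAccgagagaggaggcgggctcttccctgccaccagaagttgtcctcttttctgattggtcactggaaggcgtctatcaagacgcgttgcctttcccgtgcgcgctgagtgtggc
Zfp36, chr7:28379229-28379478, - strand: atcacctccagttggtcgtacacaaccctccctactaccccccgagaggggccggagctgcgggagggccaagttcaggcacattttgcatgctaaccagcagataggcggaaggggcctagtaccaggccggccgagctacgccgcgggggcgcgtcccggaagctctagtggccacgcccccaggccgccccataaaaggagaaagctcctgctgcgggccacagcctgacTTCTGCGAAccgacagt

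The Fas window holds a GAS 93 bases upstream of the start, but the SOCS1 site covers only the last 58 bases of the window, so this GAS lies outside it. In the Aldh18a1 window, 1 of the 2 GAS matches, 154 bases upstream, lies inside the wider KO peak and outside the WT peak. The Pigo and Wdr46 windows hold ETS matches that also lie in the KO peak and outside the WT peak. WT signal was the higher at both sites, and in Wdr46 the pair of matches overlaps on opposite strands. Each list has 1 fixed peak width, 396 bp in KO and 227 bp in WT, so whether a match lies inside depends on it. At Wdr46 the WT peak ends at position 33940657 and the first match begins at 33940661. The Socs1 window holds a pair of overlapping ISRE matches, the first beginning 83 bases upstream, again inside the KO peak and outside the WT peak of the site. The CRE of Cep57 lies inside its KO-alone site, whereas the GAS of Zfp36, 17 bases upstream, lies outside its WT-alone site.

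Shared sites were the strong ones of each list. In signal, given throughout as the authors' tags per 10000000 mapped tags, the median shared site stood at 42.8 in KO and 28.2 in WT cells, against 25.3 at KO-alone and 16.4 at WT-alone sites. Sorted into 4 bins of equal size by signal, 13.7%, 24.9%, 42.6% and 64.0% of KO peaks overlapped a WT peak, from the weakest bin to the strongest. The same shares of WT peaks were 15.1%, 25.4%, 41.9% and 65.4%, so both lists overlapped more with each step up in signal. Over all peaks 36.3% of the KO list (35.6 to 37.0) and 37.0% of the WT list (36.3 to 37.6) were shared. Of the 100 strongest peaks, 81 of the KO list and 84 of the WT list were shared.

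**Figure D1:**
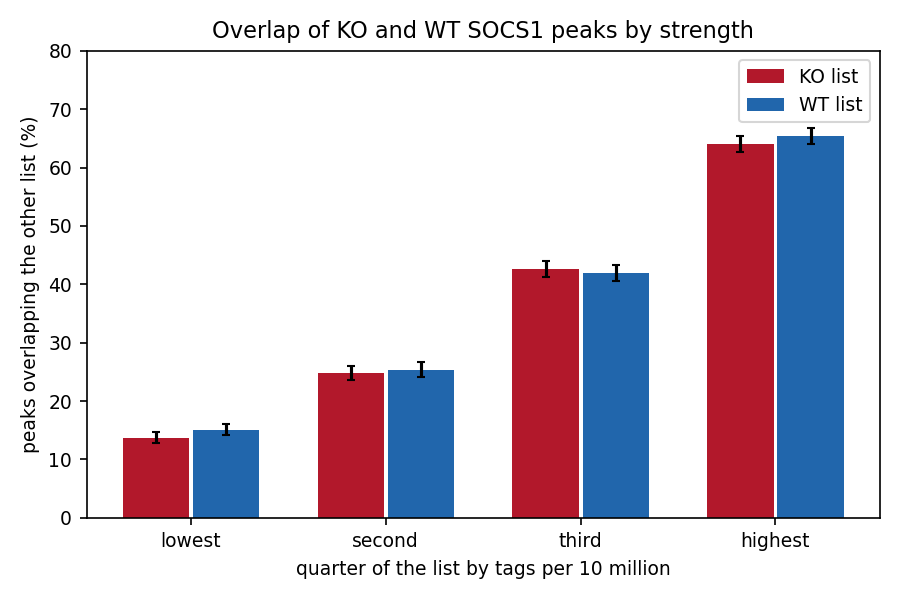
Share of SOCS1 peaks of each list (vertical axis, percent) that overlap a peak of the other genotype by at least 1 bp, for 4 bins of equal size by signal (horizontal axis); bars are the KO (red) and WT (blue) list, and error bars are exact 95% intervals. The share climbs from 13.7% to 64.0% in the KO list and from 15.1% to 65.4% in the WT list.

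The 10 strongest shared sites were ranked by the lower of the 2 signals among sites linked to a gene, which favours places near starts. Of them 8 lay within 1 kb of a RefSeq start, 9 had a KO/WT ratio below 1 and 10 had p65 peaks in both genotypes. Over all shared sites these shares were 37.0%, 20.5% and 76.6%. Ratios below 1 made up 40.8% of the strongest of 4 bins by WT signal, and 13.9% of the strongest by KO signal. The table of starts used here is incomplete, so counts of sites near a start are minimums. The first, chr7:25267648-25268044, is inside Cic, which encodes the transcriptional repressor Capicua, 147 bp from a start; it held 664.9 in KO and 851.3 in WT cells. A site at chr1:16104628-16105024 near Rpl7, a ribosomal protein gene, and Rdh10, a retinol dehydrogenase gene, held 408.0 in KO and 491.1 in WT cells. The Blcap/Nnat site held 348.7 and 429.5. In these 3, WT exceeded KO.
Of these 10, only Fkbp8/Ell stood clearly higher in KO cells, at 401.9 against 232.4, a KO/WT ratio of 1.73 (1.46 to 2.05). Fkbp8 encodes a mitochondrial immunophilin and Ell a factor of transcript elongation. The Lmna site, at the gene of the nuclear lamins A and C, held 226.2 and 233.0, and its ratio of 0.971 (0.800 to 1.18) is within counting error of 1. The other 8, Hnrnpa1, B9d2/Tgfb1, Tbl2, Mllt6 and a site near Mnt among them, ranged from 0.708 to 0.832, below the median of all shared sites given next.

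Over all 7233 shared sites the KO/WT ratio of signal had a median of 1.51, with quartiles of 1.08 and 2.10 and a range of 0.187 to 10.7. Past 2-fold, 28.3% of shared sites (2046) were higher in KO cells and 1.77% (128) were lower. The authors' peaks were 396 bp wide in the KO list and 227 bp in the WT list, a width ratio of 1.74, and the tags of a wider peak are counted over more bases. Divided by width, an alternative added after the data were seen, the median ratio was 0.867, with 274 sites over 2-fold higher and 1000 over 2-fold lower in KO cells. The authors' findPeaks score, which counts at most 1 tag per position, had a median KO/WT ratio of 1.15. The direction of the overall shift therefore depends on the scale, and ratios below are read against the median of 1.51. By 4 bins of WT signal the median ratio went from 1.95 in the weakest to 1.13 in the strongest, and by 4 bins of KO signal from 1.22 to 1.81, so a site ranked by one list stood lower in the other. Relative to 1.51, 483 sites (6.68%) stood over 2-fold higher and 635 (8.78%) over 2-fold lower in KO cells. Across shared sites the log2 signals of KO and WT cells had a Pearson r of 0.69 and a Spearman rho of 0.66 (7233 sites within 1 library each).

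**Figure D2:**
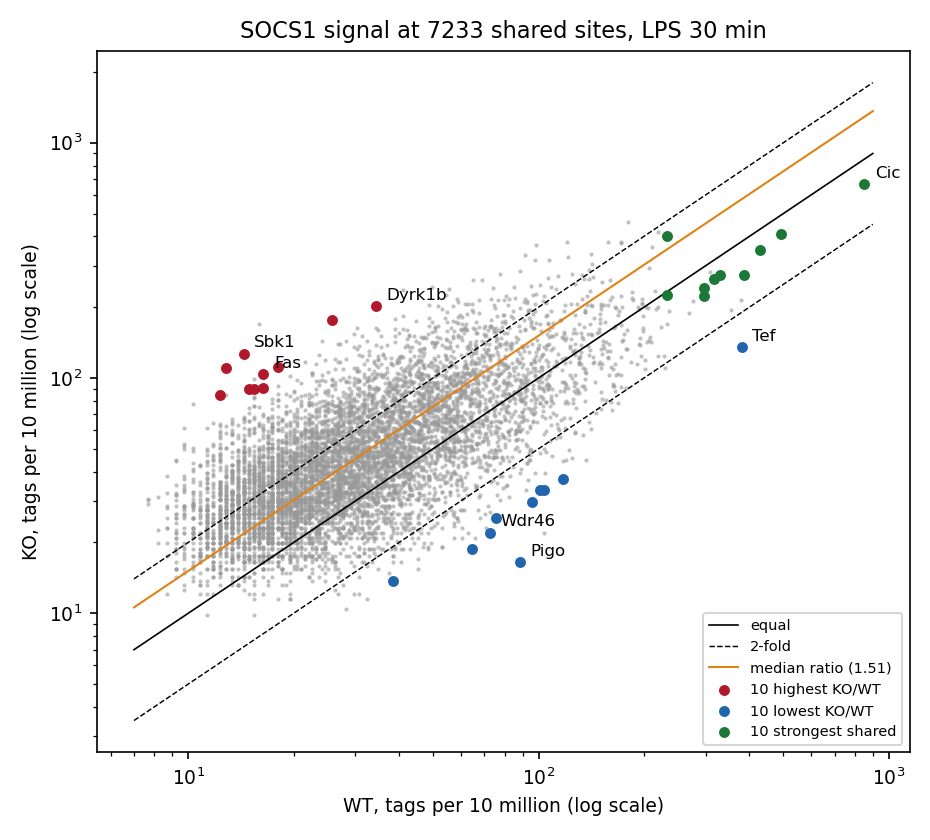
SOCS1 signal of each shared site in WT (horizontal) and KO cells (vertical), both in tags per 10000000 on log axes; grey points are sites, coloured points, all linked to a gene, the 10 highest and 10 lowest KO/WT ratios and the 10 strongest sites. The median line of 1.51 lies above the line of equality, whereas the 10 strongest sites, Fkbp8/Ell aside, lie below equality.

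Among shared sites with at least 40 tags and a linked gene, the 10 highest KO/WT ratios ran from 5.55 to 8.81; these values chose the sites and are a description. In them KO signal was 84.6 to 202.1 and WT signal 12.3 to 34.4, a gap that the choice of sites by ratio favours. The highest was inside Sbk1, a kinase gene, at chr7:126284946-126285342, with 126.8 in KO and 14.4 in WT cells, a ratio of 8.81 (5.08 to 16.7). Spr, encoding sepiapterin reductase of tetrahydrobiopterin synthesis, had 109.8 and 12.8.
Fas, the death receptor gene whose promoter is printed above, had 103.8 in KO and 16.4 in WT cells at chr19:34290601-34291027, a ratio of 6.33 (3.72 to 11.6). Aldh18a1, an enzyme of proline synthesis, had 110.9 and 18. The site inside Dyrk1b, a kinase gene, and near Fbl, the gene of the rRNA methylase fibrillarin, had 202.1 and 34.4. The others were at Cdc42ep2, a Cdc42 effector, Cep164, a centriole protein, Atxn3, a deubiquitinase, Lpar6, a lysophosphatidic acid receptor, and Pde4a, a cAMP phosphodiesterase. Of the 10 sites, 7 lay within 1 kb of a start, beside 37.0% of all shared sites on chromosomes with listed starts. Only linked sites could be chosen, which favours places near a start.

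The 10 lowest ratios ran from 0.187 to 0.356. Of these sites, again chosen among linked ones, 9 lay within 1 kb of a start, beside 37.0% of all shared sites. The lowest, at chr4:43025541-43025937 in the promoter of Pigo, which encodes an enzyme of GPI-anchor synthesis, held 16.5 in KO and 88.3 in WT cells, a ratio of 0.187 (0.100 to 0.325). The promoter site of Wdr46, a nucleolar protein gene, held 22 and 72.9. The site between Zmym3 and Nono, a paraspeckle protein gene, held 18.7 and 64.7. Each was lower in KO cells on the tag scale although the KO peaks were wider.
The strongest of the 10 was at Tef, a circadian bZIP factor gene, with 135.1 in KO and 380.2 in WT cells, a ratio of 0.355 (0.287 to 0.436). The remaining sites were at Zfp511, Hpcal1, Fam214b, Myoz1, Uqcr10 and Stxbp4. By position, shared sites within 250 bp of a start had a median ratio of 1.34, against 1.54 to 1.56 in the 3 ranges farther away, and over 2-fold lower ratios made up 3.06% of them. Sites near a start missing from the table can fall in a farther range. By chromosome the median ran from 1.45 on chromosome 17 to 1.58 on chromosome 3.

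Sites of 1 genotype alone included some of high signal. Near Ptges2, a prostaglandin E synthase gene, and Lcn2, the gene of the siderophore binder lipocalin 2, a KO-alone peak at chr2:32395742-32396138 held 302.0. The centre of the nearest WT peak at 30 min was 13697 bp away. The site was nevertheless called in WT cells at the other times, with 195.5 in control cells and 166.1 at 8 h. Cep57, a centrosomal protein gene, held 277.8 in KO cells, and its site too was called in WT cells at 8 h, at 52.0. Further KO-alone sites of 220.7 to 272.9 were at Fam104a/D11Wsu47e, Abhd11, Sirpa (the receptor of the CD47 signal), Ccdc115, Spag9 (a JNK scaffold), Zswim4, Grn (progranulin) and Parp3. Of these 10, 9 were called in the SOCS1 list of WT cells at 8 h, and 6 in that of WT control cells.

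Among the strongest linked WT-alone peaks, that of Ice1, which encodes a subunit of the little elongation complex, held 250.4 at chr13:70637951-70638177. Its site was called in both genotypes at 8 h, with 81.1 in KO and 131.4 in WT cells. Kdm6b, the gene of an H3K27 demethylase induced in activated macrophages, held 224.2 at a WT-alone site, beside a separate shared site with 164.7 in KO and 78.5 in WT cells. A pair of WT-alone sites near Mnt, which encodes a repressor partner of MAX, held 262.7 and 174.0. Others were at Usp5/Cdca3, Sestd1, Orai2, Dcaf11 and Srgap2/Fam72a. Of the 10 strongest linked WT-alone sites, 7 were called in the SOCS1 list of KO cells at 8 h.

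The authors' clonality value, at most 2 in any listed peak, was 1.61 to 1.98 at the 10 KO-alone sites and 1.40 to 2.00 at the 10 WT-alone sites; the median over all one-genotype peaks was 1.32 in KO and 1.47 in WT cells. The 10 strongest shared sites had similar values, 1.40 to 1.88 in KO and 1.57 to 2.00 in WT cells. This filter removed 1.85% of candidate peaks in the KO and 4.31% in the WT list, and the IgG filter removed 12% and 24.8%. Only 49.0% of KO and 65.2% of WT tags remained when each position counted once. The part of these filters in the absence of a strong site from one list was not tested. Many one-genotype sites also had a near neighbour: 17.4% of KO-alone and 24.3% of WT-alone sites had a peak of the other genotype with its centre within 1 kb, and among the 100 strongest these were 40 and 51.

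Over all sites, presence in the other SOCS1 lists followed the same order in every list: shared sites first, KO-alone next, and WT-alone last. Presence here is overlap by at least 1 bp, and KO peaks were 396 bp wide against 227 bp in WT. The part of width in the order was not tested. With centres within 250 bp, KO-alone and WT-alone sites were nearly equal in WT cells at 8 h, at 16.9% and 16.4%. Of shared sites 48.0% were called in KO control cells, 51.1% in KO cells at 8 h, 29.2% in WT control cells and 49.99% in WT cells at 8 h. KO-alone sites gave 24.1%, 24.2%, 13.02% and 18.99%, and WT-alone sites 17.8%, 16.01%, 10.1% and 16.3%. WT-alone sites were called as often in KO as in WT cells at 8 h, and more often in KO than in WT control cells. These lists differ in length, from 9438 peaks in WT control to 24270 in KO control cells.
Of KO-alone sites 54.2% (53.3 to 55.1) were in no other SOCS1 list, as were 60.7% of WT-alone sites (59.9 to 61.6) and 17.4% of shared sites (16.5 to 18.3). At the other end, 501 sites were called in KO cells at all 3 times and in no WT list, 166 in WT cells at all 3 times and in no KO list, and 629 in all 6 SOCS1 lists. The strongest linked site of the first kind was at Caprin1, an RNA-binding protein gene, where KO signal was 286.2 without LPS, 205.4 after 30 min and 183.4 after 8 h. Of the second kind, Rnf44, a ubiquitin ligase gene, had 38.2, 155.5 and 61.5 in WT cells in the same order of times, and the promoter site of Zfp36, the gene of the mRNA-decay factor tristetraprolin, had 52.0, 140.6 and 97.3. These 3 were chosen after their values were seen.

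**Figure D3:**
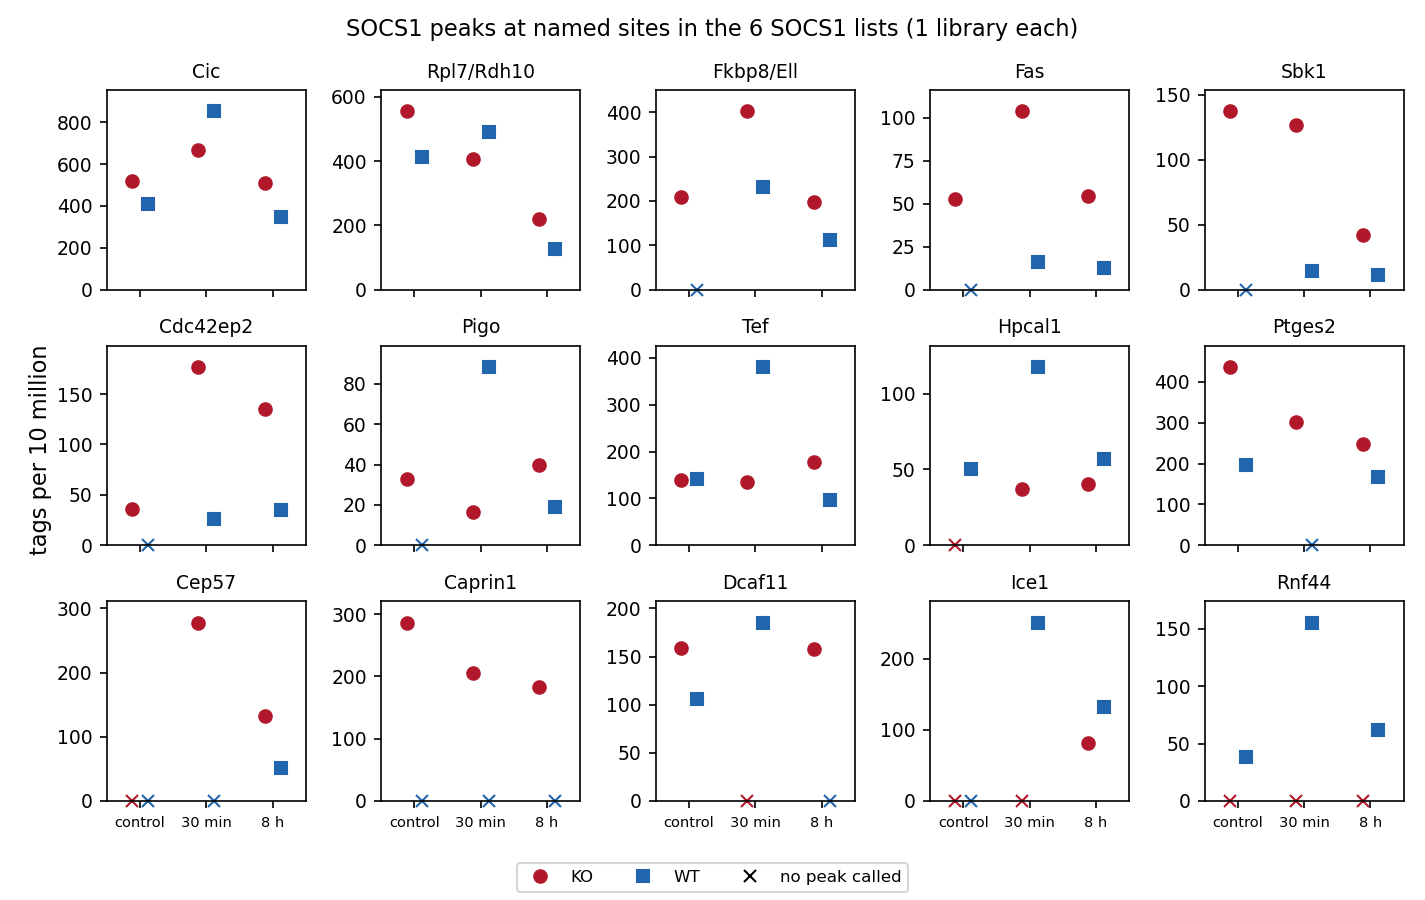
SOCS1 signal (vertical axes, tags per 10000000, each panel with its own scale from 0) at 15 named sites, by time of LPS (control, 30 min, 8 h), for KO (red circles) and WT cells (blue squares), 1 library each; a cross at 0 marks a list with no peak there. Fas is higher in KO cells at 30 min and 8 h, Pigo and Tef are lower in KO cells at 30 min and higher at 8 h, and Ptges2 and Ice1 lack a peak in 1 genotype at 30 min and not at 8 h.

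A gene was linked to a site when the peak centre lay within 10 kb of either of its ends. Of 21887 protein-coding genes, 7992 had peaks of both genotypes (36.5%), 2361 of KO cells alone (10.8%) and 1623 of WT cells alone (7.42%); 5678 had a shared site (25.9%). The strongest shared site of a gene was over 2-fold higher in KO cells for 24.7% and over 2-fold lower for 2.36% of these, with a median ratio of 1.42. The lists below were composed with earlier results of these data known, and their counts are set beside these shares. Counts in them are of genes, and neighbouring genes can share 1 site.

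Of 35 JAK-STAT and SOCS genes, 30 had peaks of both genotypes, 3 of KO cells alone and none of WT cells alone. Over all genes these shares were 36.5%, 10.8% and 7.42%. A high count was not particular to this list. Both genotypes had peaks at 21 of 24 ribosomal protein and 17 of 20 glycolysis genes, against 10 of 15 housekeeping genes. The promoter of Socs1 held a shared site at chr16:10785596-10785992 with 58.2 in KO and 41.6 in WT cells, a ratio of 1.40 that is below the median. No 30 min SOCS1 peak of either genotype had its centre inside the short Socs1 gene itself. Cish, another inhibitor induced by STAT5, had 214.7 and 76.5, a ratio of 2.81 (2.13 to 3.70).
Among receptors, Il10rb had 141.7 in KO and 203.7 in WT cells and Ifngr1 157.6 and 118.5. Ifnar1, the type I interferon receptor chain, had 38.4 in KO cells alone; Socs5 had 30.7 and Socs2 16.5, also in KO cells alone. At Socs5 and Ifnar1 a weaker SOCS1 peak was called in WT cells at 8 h, at 16.8 and 22.1. Of 23 genes of the list with a shared site (22 distinct sites, since Stat5a and Stat5b share 1), 7 were over 2-fold higher in KO cells and none was over 2-fold lower. Against the median ratio of all shared sites, 1 was over 2-fold higher and 1, Il10rb, over 2-fold lower, and the list's median of 1.40 is close to that of all genes. Nos1, the gene that the design text names, had 4 peaks inside it in KO cells, the highest 53.3 at chr5:117872240-117872636, and none in WT cells.

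Immediate-early genes, which are transcribed within minutes of a stimulus without new protein synthesis, all carried peaks of both genotypes (21 of 21, beside 36.5% of all genes). Of the 16 with a shared site, 9 were over 2-fold higher in KO cells, beside 24.7% of all genes with one, and the median ratio was 2.21. Egr1, a zinc-finger factor, had 120.2 in KO and 34.9 in WT cells, a ratio of 3.44 (2.34 to 5.25), and Jun, a subunit of AP-1, had 182.3 and 60.5. Egr2 had 125.2 and 126.7 and did not follow them. Against the median ratio of all shared sites, 2 of the 16 were over 2-fold higher and none was over 2-fold lower.

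Interferon-stimulated genes had 17 of 28 members with peaks of both genotypes, 2 with KO and 4 with WT peaks alone. Over all genes these shares were 36.5%, 10.8% and 7.42%. The 10 genes with a shared site (9 distinct sites, since Ifit2 and Ifit3 share 1) had a median ratio of 2.09. Of them 6 genes, at 5 sites, were over 2-fold higher in KO cells, beside 24.7% of all genes with a shared site. None was below 1, beside 23.6% of all genes with one, and 10 genes are few. Against the median ratio of all shared sites, 2 were over 2-fold higher and none over 2-fold lower. Gbp3, a guanylate-binding protein of cell-autonomous defence, had 88.4 and 24.6, a ratio of 3.59 (2.27 to 5.96). Bst2 (tetherin) had 65.3 and Ifit1, a sensor of foreign RNA, 34.6, both in KO cells alone, while Oasl2 had 22.6, Igtp 23.1, Isg20 28.2 and Eif2ak2 11.8 in WT cells alone. For Oasl2 this rests on the 10 kb limit. A KO peak of 54.9, linked to Oasl1, had its centre 430 bp from the WT peak and just past that limit. Of these one-genotype sites, that of Bst2 was called in WT cells at 8 h, at 23.7. The site of Isg20 was called in KO control cells, at 41.0, and that of Igtp in KO cells at 8 h, at 18. Of the regulators of this class, Irf1 had 186.1 and 168.3, Irf3 52.7 in KO cells alone, and Irf9, a part of the interferon-activated ISGF3 complex, 74.9 in WT cells alone, at a site called in KO control cells at 77.

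NF-κB subunit genes all had a site. Rela, which encodes p65, had a KO-alone peak of 61.5, a site with a SOCS1 peak of 20.0 in WT cells at 8 h, whereas Nfkb2 had 58.2 in KO and 29.8 in WT cells at its shared site. Feedback inhibitors of NF-κB were marked in both genotypes for 14 of 15 genes, with 0 of 11 shared sites past 2-fold in either direction. Against the median ratio 1 was over 2-fold lower, Zc3h12a, the gene of the RNase regnase-1, with 138.4 and 194.5. Tnfaip3, the gene of A20, had 42.1 in WT cells alone at 30 min, but its site was called in KO cells at the other times, at 34.1 in control cells and 50.2 at 8 h, and in no other WT list. Of 26 genes of TLR4 and its adaptors, 18 had peaks of both genotypes; Ticam1, the adaptor TRIF, had 139.5 and 158.6 and Cd14 79.1 and 49.8.

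Cytokine and chemokine genes did not share a direction. Of 20 cytokine genes, 17 had peaks of both genotypes, and of 15 with a shared site (14 distinct sites, since Tnf and Lta share 1) 4 were over 2-fold higher and 1 over 2-fold lower in KO cells. Against the median ratio the balance turned, to 1 over 2-fold higher and 3 over 2-fold lower. The 1 that was lower on both scales was Ebi3, a subunit of IL-27 and IL-35, with 45.0 in KO and 119.6 in WT cells, a ratio of 0.376 (0.256 to 0.539). Tnf had 111.5 and 102.6. Of 18 chemokine genes, 13 had peaks of both genotypes, none of KO cells alone and 2, Ccl9 and Ccl6, of WT cells alone. The site near Cxcl1 and Cxcl2, which encode neutrophil attractants, had 155.4 and 61.1, and that near Ccl3 and Ccl4 203.7 and 119.0; each of these pairs shares 1 site.

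Other LPS response genes were mixed too. The shared site of Zfp36 had 271.8 in KO and 113.4 in WT cells, a ratio of 2.397 (1.904 to 3.02), while the shared site of Dusp1, a phosphatase of p38 and JNK, had 103.2 and 166.3, a ratio of 0.621 (0.476 to 0.805). In MHC class I processing, the site of the proteasome activator genes Psme1 and Psme2 had 243.2 and 108.3, but the site shared by Tap1, the peptide transporter, and Psmb9, an immunoproteasome subunit, had 109.3 and 163.2. The shared site of Cyba, the oxidase subunit p22phox, had 109.8 and 228.9, a ratio of 0.480 (0.375 to 0.610). Il1b had 68.6 and 27.2, and Ripk3, a necroptosis kinase gene, had 73.6 in KO cells alone. Pim1, a survival kinase gene, had 216.3 and 73.4.

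Genes not tied to LPS were marked as well. All 15 housekeeping genes had a peak; 10 had both, Tbp had KO peaks alone, and 4 had WT peaks alone, Actb (110.8), Ppia (88.8) and Hprt (9.24) among them. The site of Actb was called in KO cells at 8 h, at 90.1, and that of Ppia in KO control cells, at 116.7. The 8 housekeeping genes with a shared site had a median ratio of 2.01, close to that of interferon-stimulated genes. Of them 4 were over 2-fold higher in KO cells, beside 24.7% of all genes with a shared site. None was below 1, beside 23.6%, and against the median ratio none was past 2-fold. Of 24 ribosomal protein genes, 21 had peaks of both genotypes, with a median ratio of 1.21 at 16 shared sites. Of 20 macrophage genes, all had a peak and 16 had both; Adgre1 (F4/80), Mertk and Maf had KO peaks alone and Spi1, the gene of the lineage factor PU.1, WT peaks alone; the Spi1 site was called in KO control cells, at 120.4. A peak in either genotype was found at 6 of 12 neutrophil, 8 of 14 lymphocyte and 6 of 10 dendritic cell genes. These counts are near the share of all genes, 54.7%. Of 20 neuronal and hepatic genes, 5 had a peak, below that share.

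**Figure D4:**
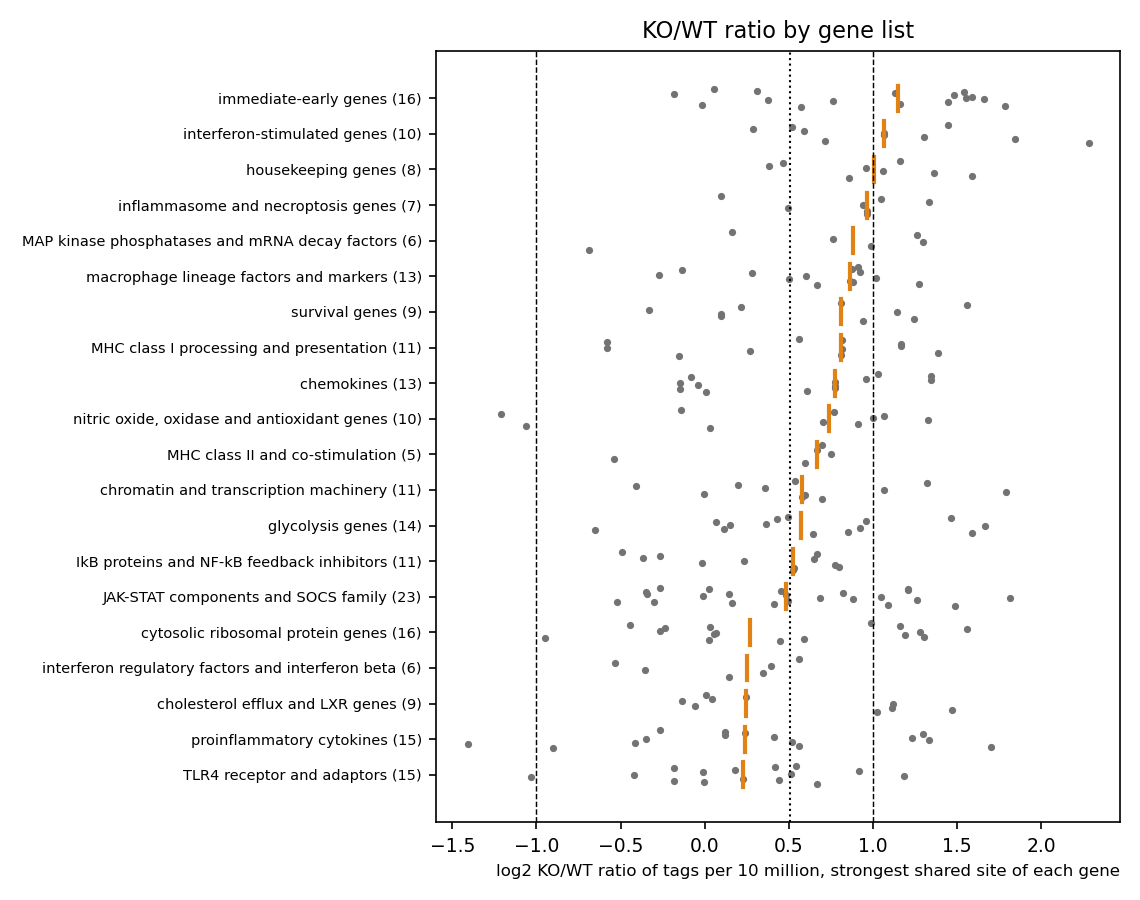
Log2 KO/WT ratio of signal (horizontal axis) at the strongest shared site of each member gene, for gene lists with at least 5 such genes (vertical axis, number in brackets); grey points are genes, orange bars list medians, the dotted line the median of all genes and dashed lines 2-fold. Immediate-early, interferon-stimulated and housekeeping genes have the highest medians of these lists and TLR4 genes the lowest, and the points of most lists spread over both sides of the dotted line.

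p65 lay at most shared SOCS1 sites. A p65 peak at 30 min overlapped 84.4% of shared sites in the KO and 83.6% in the WT p65 list, and 76.6% in both. At KO-alone SOCS1 sites the shares were 46.8% and 40.3%, and at WT-alone sites 41.4% and 38.4%. The KO p65 list was longer, with 43124 peaks against 36030. Where p65 was called in 1 genotype, the share of KO was 64.1% at KO-alone SOCS1 sites (62.4 to 65.9), 57.7% at WT-alone sites (55.7 to 59.7) and 52.5% at shared sites (49.5 to 55.6), beside 60.8% over all p65 sites. SOCS1 sites of WT cells alone therefore also had p65 of KO cells alone more often than of WT cells alone.

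The KO/WT ratios of SOCS1 and of p65 at 30 min ran in opposite directions across sites. Over 5542 sites called in all 4 lists of 30 min, the log2 ratios had a Pearson r of -0.37 and a Spearman rho of -0.38. Of 4 bins by SOCS1 ratio, the highest had a median p65 ratio of 0.867 and the lowest one of 1.19. With SOCS1 at 8 h the r was 0.39 (2342 sites), with SOCS1 in control cells 0.22 (1281), with p65 at 8 h 0.31 (3540) and with p65 in control cells -0.07 (683). Peak widths in KO and WT cells were 222 and 254 bp for p65 at 30 min, 353 and 359 bp for p65 in control cells, 414 and 343 bp for SOCS1 in control cells, 375 and 260 bp for SOCS1 at 8 h and 493 and 239 bp for p65 at 8 h. The r was negative for the 2 pairs with narrower KO peaks and positive for the 3 pairs with wider ones, but its size did not follow the width ratio, since p65 at 8 h had the highest width ratio (2.06) and SOCS1 at 8 h (1.44) the highest r. The part of width in it was not tested.
The named sites show the same range. Cdc42ep2, with 176.8 in KO and 25.7 in WT cells for SOCS1, had 104.7 and 169.3 for p65; Tef, with 135.1 and 380.2, had 164.4 and 175.7. Of the 10 sites with the highest SOCS1 ratios, 6 had p65 peaks of both genotypes, and 1 of these had more p65 in KO cells.

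**Figure D5:**
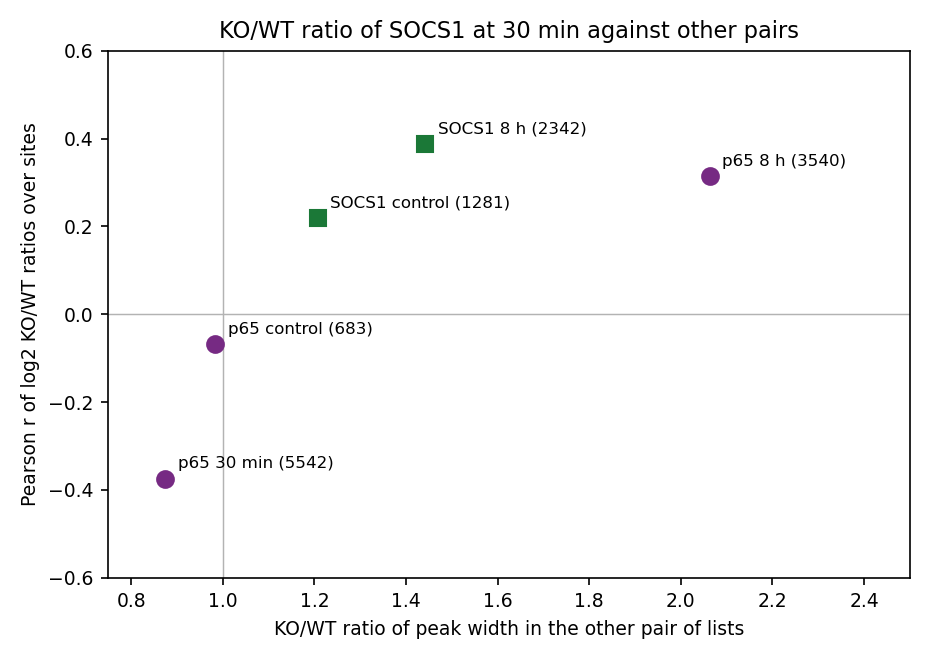
Pearson r across shared sites between the log2 KO/WT ratio of SOCS1 at 30 min and that of another pair of lists (vertical axis), against the KO/WT ratio of peak width of that pair (horizontal axis); circles are p65, squares SOCS1, with the number of sites in brackets. The r is -0.37 for p65 at 30 min, whose KO peaks are narrower, and 0.22 to 0.39 for the pairs with wider KO peaks.

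The classes were alike in promoter sequence. Shared sites lay more often within 1 kb of a listed start (37.0%) than KO-alone (24.1%) and WT-alone sites (22.7%). The table of starts is incomplete, with none on chromosome 18, so these shares cover 7018, 12354 and 12022 sites. A site near a missing start counts as far from one. In 300-base windows around 21263 RefSeq starts of the genes used, the median GC content was 61.3% at starts with a shared site, 60.7% with a KO-alone site and 61.0% with a WT-alone site, against 54.3% with no site. GAS was found in 7.24%, 6.96% and 7.02% of the 3 classes and in 7.69% of all windows, and ISRE in 3.43%, 4.42% and 3.02% against 3.35%. AP-1 was found in 4.05%, 5.39% and 4.98% against 6.99%, and CRE in 4.58%, 3.69% and 3.92% against 2.23%. PU.1 GAGGAAGT was found in 3.38%, 3.69% and 2.86% against 3.13%, and the NF-κB consensus in 6.03%, 4.78% and 5.22% against 4.81%.
Of the words added after the values were seen, ETS, which shares the letters GGAAGT with the PU.1 word, was found in 10.3%, 10.2% and 10.8% against 5.15%, and the E-box in 12.9%, 11.7% and 12.9% against 7.84%. Among windows with a shared site, split into 4 bins by KO/WT ratio, ETS was found in 13.9% of the bin with the lowest ratios, as at Pigo and Wdr46, and in 7.14% of the bin with the highest. These are matches of letters in a fixed window and show no bound factor.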

How the data were processed

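The series holds 20 CUT&RUN samples, which are p65, SOCS1 and IgG libraries and internal controls for H3K9me3 and normal IgG. The 12 deposited peak lists of p65 and SOCS1 were used, 1 library each. Per the submitters' processing notes, the tools were cutadapt, Bowtie2 2.4.1 and HOMER 4.11, with the build mm10. Per the file headers, peaks of fixed width were called by findPeaks against IgG. IgG libraries therefore enter only through the authors' calls, and 1 IgG library served both antibodies of a genotype and time. The signal is the authors' Normalized Tag Count, tags per 10000000 mapped tags; the spike-in was not used here. The deposited score counts tags after limiting copies, and the focus ratio is a deposited fraction that says how well the tags of each strand point to the centre. Fold over IgG, over local background and over clonal copies are ratios in the deposited lists, and the p-value columns are the authors' and were not used for a test.

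Peaks of KO and WT overlapping by at least 1 bp were joined. The exact 95% binomial and conditional intervals are for counting error only, and those of ratios count copied tags as independent. Genes came from the RefSeq table of GRCm38.p6, with a peak centre within 10 kb of either gene end. Distances to starts came from a RefSeq start table that is incomplete and holds no start on chromosome 18. Promoter sequences are RefSeq windows of 300 bases; motifs in peaks were not run because no genome was used here. The members and lists were chosen with earlier results of these data known. Sites named are the 10 highest and 10 lowest KO/WT ratios among linked shared sites with at least 40 tags, and the 10 strongest linked sites of each class; up to 4 members of each class are named per gene list, and others were chosen after their values were seen. Some sites and genes that these rules select are not reported here. The scripts were tested on simulated data with Python 3.11.15, numpy 2.4.6, pandas 2.3.3, scipy 1.17.1 and matplotlib 3.10.9.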

Additional observations from a re-analysis of the deposited data

Results flagged for a closer look

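At 3 named sites the KO/WT ratio of SOCS1 at 30 min was past 2-fold one way and the ratio of another pair of lists past 2-fold the other way; the difference was not tested, since each list is 1 library. Among the named shared sites, ratios lay on opposite sides of 1, by any size, in 17 of 23 with p65 at 30 min, 11 of 20 with SOCS1 at 8 h and 4 of 11 with SOCS1 in control cells. These sites were chosen by their SOCS1 ratio or signal at 30 min. The share over all shared sites was not computed, so the counts are a description of these sites only. At the Dyrk1b/Fbl site the SOCS1 ratio was 5.88, while the p65 ratio at 30 min was 0.409, from 41.0 in KO and 100.2 in WT cells. At the Pigo promoter the SOCS1 ratio was 0.187 at 30 min and 2.11 at 8 h, where KO cells had 39.9 and WT cells 18.9. At the Zfp511/Tubgcp2 site the SOCS1 ratio was 0.309 at 30 min and 2.54 at 8 h, where KO cells had 50.8 and WT cells 20.0. The median SOCS1 ratio at 8 h was 1.64 over the 2342 shared sites called in both 8 h lists. Against it, neither of these 8 h ratios was past 2-fold.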

How the results depend on the processing

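With 1 library per genotype no replicate could be left out. No paired analysis was possible because each group has 1 library. Limited to peaks at least 8-fold above local background, 4208 sites were shared, 8062 KO alone and 8838 WT alone, and 2686 genes had KO and 2678 WT peaks alone, so KO-alone sites no longer outnumbered WT-alone sites and the KO excess in genes was nearly gone. With the 10000 highest peaks of each list, 4452 sites were shared, 5548 KO alone and 5543 WT alone, and 5087 genes had both. One-genotype sites with at least 2 times the lowest signal of the other list numbered 11958 for KO and 5341 for WT, so here KO-alone sites were in clear excess. The lowest signal differs between the lists. At 2 kb 4915 genes had both. The median KO/WT ratio was 1 when divided by the median (483 sites over 2-fold higher, 635 lower), 1.05 scaled to tags in shared sites (599 higher, 529 lower), 1.15 by the score (519 higher), 1.51 for summed peaks, 1.52 with at least 40 tags and 1.51 with centres within 250 bp. At 1.5-fold 3664 sites were higher and 399 lower, and at 3-fold 508 and 11. Per base pair of width, added after the data were seen, the median turned to 0.867 (274 higher, 1000 lower); the cause was not tested beyond the widths given.

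With centres within 250 bp, p65 of KO cells lay at 79.0% of shared, 42.9% of KO-alone and 42.2% of WT-alone sites, and p65 of WT cells at 79.4%, 37.4% and 38.6%. At 8-fold over local background, p65 of KO cells lay at 80.8% of shared, 37.8% of KO-alone and 37.995% of WT-alone sites, and p65 of WT cells at 79.3%, 33.2% and 32.8%. So the order of KO-alone above WT-alone sites turned for p65 of WT cells in the first setting and for p65 of KO cells in the second. With centres within 250 bp, SOCS1 of KO control cells was called at 41.0% of shared, 19.2% of KO-alone and 15.4% of WT-alone sites, and SOCS1 of KO cells at 8 h at 47.0%, 21.6% and 14.9%. SOCS1 of WT control cells was called at 26.2% of shared, 11.1% of KO-alone and 9.81% of WT-alone sites. For SOCS1 of WT cells at 8 h these shares were 45.7%, 16.9% and 16.4%, so there KO-alone sites led WT-alone sites only slightly. The lowest signals listed, 8.79 in KO and 7.18 in WT cells, limit what can be called absent.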
